A study of Mus musculus with 8 samples.

Results

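The potassium channel genes of the gravid mouse uterus were taken as every gene whose platform symbol starts with Kcn. Of 13120 genes named by a single symbol in the table, 44 met this rule, and they were covered by 70 of the 28000 probe sets. A probe set is a group of short probes on the array that together give a single signal for a transcript. Each gene was represented by its brightest probe set, the one with the highest mean log2 signal over the 8 arrays. Of the 44 genes, 43 encode channel subunits and the remaining gene, Kcnq1ot1, encodes a noncoding antisense RNA that shares the Kcn prefix because it lies within the channel gene Kcnq1.

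Potassium channels let potassium leave the cell down its concentration gradient, which holds the membrane potential negative and opposes the calcium entry that makes smooth muscle contract. In the myometrium, the muscle layer of the uterus, several families do this together: calcium-activated channels that open when calcium rises, ATP-sensitive inward rectifiers that respond to the metabolic state, voltage-gated channels that end the action potential, and tandem-pore channels that set the resting potential. Accessory subunits without a pore of their own alter the gating or the surface expression of these channels. In epithelia, potassium channels recycle potassium across the membrane and so sustain the transport of salt and water.

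The arrays compared the uterus of wild-type mice with that of mice lacking cyclooxygenase-1 (Cox-1 KO), the enzyme encoded by Ptgs1 that makes the precursor of the prostaglandins. All 8 mice were pregnant females at gestational day 18.0, with 4 of each genotype and 1 mouse on each array. The wild-type mice were C57BL/6 and the Cox-1 KO mice were C57BL/6 x Sv129 by the labels, which give an age of 6 to 16 weeks for both groups. The methods name the second strain as 129P2 and give an age of 8 to 16 weeks. Genotype and strain background therefore cannot be told apart in any comparison. Placenta, membranes and fetuses had been taken off before RNA was made from the remaining uterine wall as a whole, so fewer cells of a type and less RNA per cell cannot be told apart either.

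Signals were Affymetrix MAS5 intensities, and array medians ran from 731 to 757. Ptgs1 carried signals of 7048, 10610, 10756 and 10508 in wild-type uteri and of 88, 122, 76 and 136 in Cox-1 KO uteri, so all 8 arrays matched their labels (log2 fold change -6.55, limma adjusted p = 5.66e-08). The defining markers of uterus and smooth muscle were all measured, with 5 of 5 uterus markers and 7 of 7 smooth muscle markers passing the filter on low signal. Wild-type array 4 and Cox-1 KO arrays 1, 3 and 4 stood apart by a high signal for Apoa1, an apolipoprotein gene that the yolk sac expresses strongly (50275 to 69038, against 342 to 842 on the other 4 arrays). Where a gene's side of an unadjusted p of 0.05 changes without these 4 arrays, the value without them is given. Then a single Cox-1 KO array remains, which is assumed to vary as the wild-type arrays do.

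The potassium channel genes passed the filter on low signal about as often as other genes, and most had modest signal. The filter asked for 4 arrays with a signal of at least 100, and 42 of 44 genes passed it (95.5%, against 96.5% of all genes). The exceptions were Kcna5, a voltage-gated channel of vascular smooth muscle, and Kcnk15, a tandem-pore channel. By their mean over 8 arrays, 3 genes (Kcna2, Kcna5 and Kcnk15) lay under 100, 30 lay between 100 and 1000, and 11 lay at 1000 or more. The last band held 25% of the potassium channel genes and 55.4% of all 13120 genes. These bands do not rank transcript abundance, because probe sets differ in how brightly they report the same amount of RNA. For scale, the 8 probe sets for olfactory and vomeronasal receptors, which the uterus is not known to use, had mean signals of 47.1 to 405.5 with a median of 97.3, and 26 of the 44 potassium channel genes had a mean no higher than the highest of these.

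The 11 genes of the upper band came from several classes. They were the tandem-pore channels Kcnk1, Kcnk5 and Kcnk6, the inward rectifiers Kcnj8 and Kcnj11, the calcium-activated channel Kcnma1, the voltage-gated channel Kcnh2, the accessory subunits Kcne2, Kcne4 and Kcnmb1, and the RNA Kcnq1ot1. None of the 8 genes of the Kcna to Kcnd families reached it, and Kcnc2 and Kcnd3 had the highest means among them, at 684 and 646.5. The spread between arrays was smallest among bright genes, though not for each of them. The within-group SD on the log2 scale was under 0.1 for 3 bright genes, Kcnmb1 (0.048), Kcnk1 (0.062) and Kcne4 (0.065), and 0.5 or more for 5 dim genes, Kcnj15 (1.68), Kcnmb2 (1.37), Kcna2 (0.89), Kcnip1 (0.61) and Kcne3 (0.52). The bright gene Kcnk5 had 0.33.

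**Figure D1:**
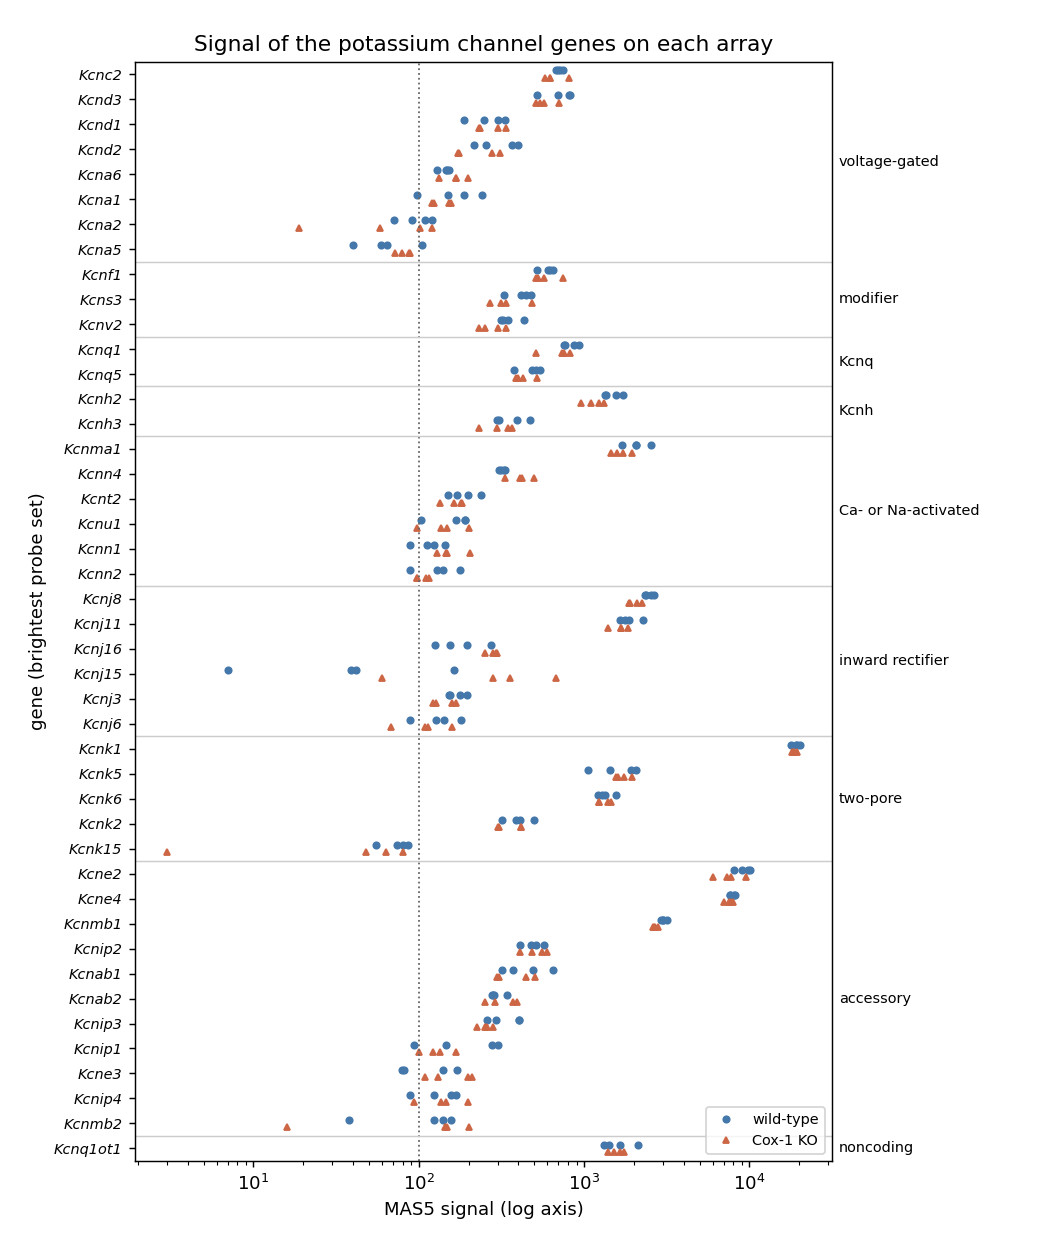
MAS5 signal (log axis) of each of the 44 potassium channel genes on the 8 arrays, grouped by class, with circles for wild-type and triangles for Cox-1 KO uteri and a dotted line at the filter's minimum of 100. Among the 11 genes with a mean of 1000 or more the points of Kcnmb1, Kcnk1 and Kcne4 are the tightest, while Kcnj15, Kcnmb2 and Kcna2 scatter widely at low signal.

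No potassium channel gene passed the test between the genotypes after adjustment over the whole table. Of 26444 probe sets tested with limma, 3 had an adjusted p under 0.05 (0.0113%), and none was a potassium channel probe set. The smallest adjusted p of a potassium channel gene was 0.423. At an unadjusted p under 0.05, 8 of the 42 tested genes differed: Kcnj15, Kcnj16 and Kcnn4 had higher signal in Cox-1 KO uteri, and Kcnj8, Kcnh2, Kcnmb1, Kcnma1 and Kcne2 had lower signal. Over all 12660 genes tested, 4.83% were higher and 4.37% were lower at that threshold, 9.19% in all, against 19% of the potassium channel genes. Kcnj15 entered the test only through the arrays on which it was high, and without it the count was 7 of 41 (17.1%). Leaving out Cox-1 KO array 4 gave a count of 4, all among the 8. These were 10% of the potassium channel genes tested there, against 7.27% of all probe sets. Without the 4 arrays high in Apoa1 a single Cox-1 KO array was left, so no count is given for that run.

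In sign, 31 of the 42 genes were lower in Cox-1 KO uteri and 11 were higher. This was 73.8% lower, against 52.7% of all genes tested, and the median log2 fold change was -0.17, against -0.01 for all genes. Without wild-type array 1 the median was -0.11. The genotypes did not overlap for 1 gene that was higher (Kcnn4) and 3 that were lower (Kcnj8, Kcnh2 and Kcnmb1), where 1.84% and 2.50% of all genes were separated in these directions. That count of 4 became 7 without Cox-1 KO array 2 and 8 without Cox-1 KO array 3. With 1 array fewer the groups of any gene separate more easily. The share over all genes was not counted for these runs. Genes of a family are not independent replicates, and no test was run on these shares.

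The differences of the brighter genes were mostly small. Of the 11 genes in the upper band, 10 were lower and 1 was higher, with log2 fold changes from -0.38 to 0.13, and 5 of the 8 genes at an unadjusted p under 0.05 came from this band. For 17 of the 42 genes the 95% interval of the difference lay within a 1.5-fold change either way, among them 9 of the 11 in the upper band. The intervals of Kcnh2 and Kcnma1 reached past it. No potassium channel gene met the methods' thresholds, a p of 0.05 or less in the methods' own test with a 1.5-fold ratio of mean signals, on its brightest probe set, where 0.862% of the 26444 probe sets met them. A dimmer probe set of Kcnmb2, a beta subunit of the large conductance channel, met them but did not pass the filter. Its signals were 70, 56, 64 and 82 in wild-type uteri and 99, 88, 124 and 204 in Cox-1 KO uteri, a ratio of 1.89, with no overlap. On the brighter probe set the mean signals of Kcnmb2 were 114 for wild-type and 127 for Cox-1 KO uteri, with a log2 difference of -0.14 that became -2.55 without the 4 arrays high in Apoa1, where Cox-1 KO array 2, at 16, is the only one of its genotype left.

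**Figure D2:**
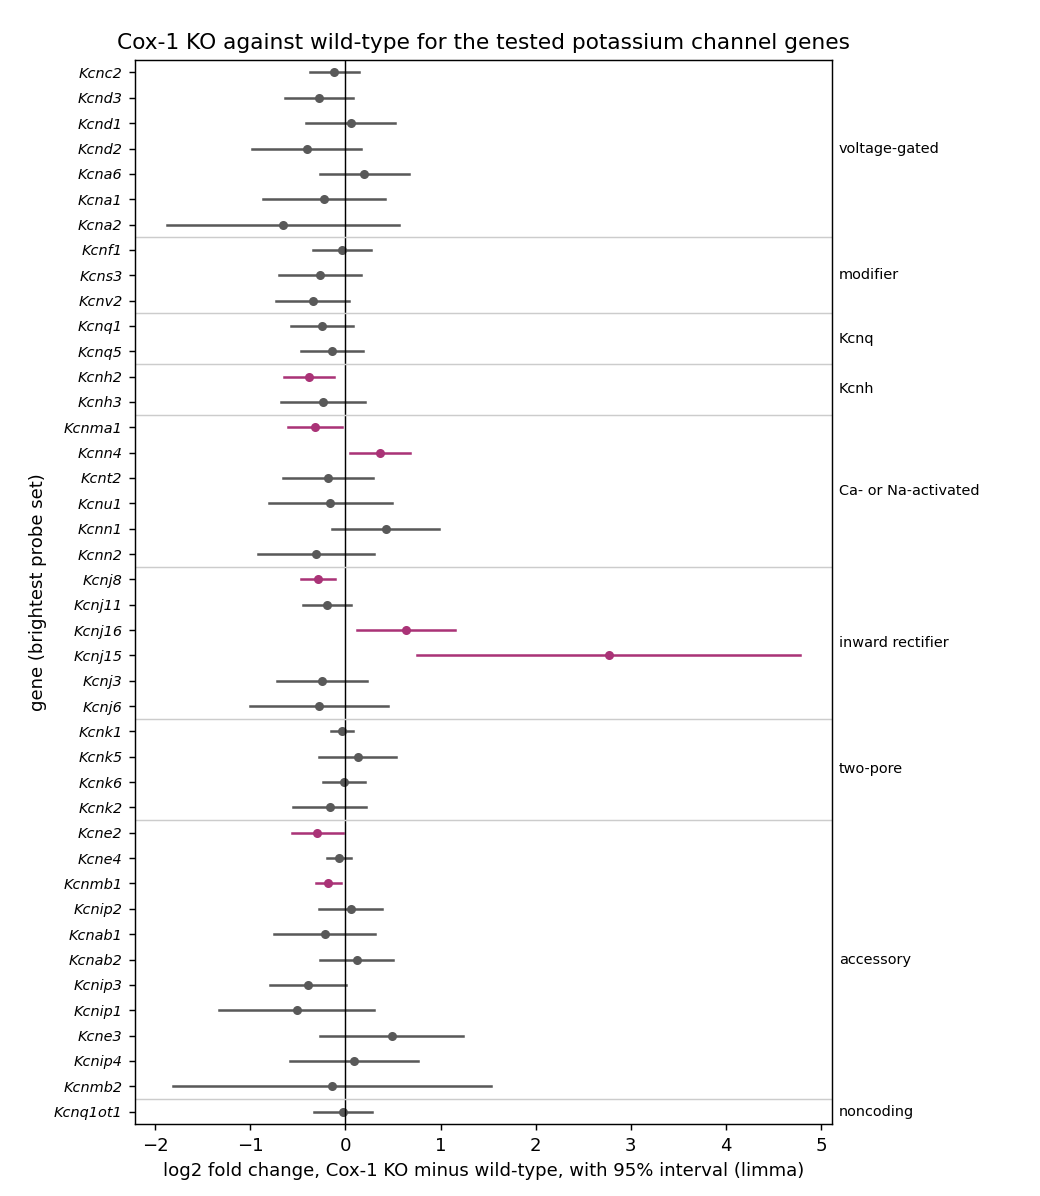
Log2 fold change, Cox-1 KO minus wild-type, of the 42 tested potassium channel genes with the 95% interval from limma, grouped by class, with the 8 genes at an unadjusted p under 0.05 coloured. Most points lie left of 0 (31 of 42), and the intervals are narrow for bright genes such as Kcnmb1 and wide for dim genes such as Kcnj15.

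Promoter sequence is shown for the members at an unadjusted p under 0.05. Of these 8 genes, 5 had at least 150 bases before the start in the RefSeq windows, and all 5 are shown. The sequences are the bases before the outermost annotated start of each gene, read 5′ to 3′ along the gene's strand from RefSeq (build GRCm38.p6), with capitals for each CG pair.
Kcnmb1: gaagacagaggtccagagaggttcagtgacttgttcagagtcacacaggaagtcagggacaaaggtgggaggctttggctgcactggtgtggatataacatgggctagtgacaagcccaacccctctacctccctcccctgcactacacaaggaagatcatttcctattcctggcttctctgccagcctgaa
Kcnj8: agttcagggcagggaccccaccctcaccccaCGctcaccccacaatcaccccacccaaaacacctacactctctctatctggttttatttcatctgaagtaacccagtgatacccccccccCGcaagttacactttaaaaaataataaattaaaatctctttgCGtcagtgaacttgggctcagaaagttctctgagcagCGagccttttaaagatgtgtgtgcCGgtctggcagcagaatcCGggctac
Kcnj15: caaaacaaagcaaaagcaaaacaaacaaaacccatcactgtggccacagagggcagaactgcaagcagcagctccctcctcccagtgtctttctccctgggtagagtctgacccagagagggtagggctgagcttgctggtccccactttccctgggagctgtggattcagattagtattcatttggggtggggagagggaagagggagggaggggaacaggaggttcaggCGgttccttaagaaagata
Kcnj16: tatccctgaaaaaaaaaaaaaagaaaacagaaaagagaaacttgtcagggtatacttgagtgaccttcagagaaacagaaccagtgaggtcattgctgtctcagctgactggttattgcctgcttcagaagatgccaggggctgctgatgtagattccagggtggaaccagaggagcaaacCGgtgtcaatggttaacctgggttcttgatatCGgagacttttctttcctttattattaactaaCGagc
Kcne2: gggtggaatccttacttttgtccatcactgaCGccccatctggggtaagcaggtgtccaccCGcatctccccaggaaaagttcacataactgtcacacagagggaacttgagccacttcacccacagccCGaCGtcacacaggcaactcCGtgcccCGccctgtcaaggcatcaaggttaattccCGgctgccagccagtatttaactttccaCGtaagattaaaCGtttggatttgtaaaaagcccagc
The Kcnmb1 sequence is chr11:33962763-33962954 on the plus strand, 192 bases, and the gene lies inside the annotated span of Kcnip1. It holds no CG pair, which was true of 11.6% of 32851 promoter windows cut to the same length. The Kcnj8 sequence is chr6:142571615-142571864 on the minus strand and holds 6 CG pairs, with 53.7% of windows of 250 bases at 6 or fewer. Kcnj15 (chr16:95257308-95257557, plus strand) holds 1, with 18.8% of windows at 1 or none, and Kcnj16 (chr11:110967783-110968032, plus strand) holds 3, with 37.8% at 3 or fewer. Kcne2 (chr16:92292139-92292388, plus strand) holds 9, with 62.2% at 9 or fewer. Of 4 motifs searched on both strands, the only match in the 5 sequences was a GC box in Kcne2, at base 156 counted from the 5′ end. The TATA box (TATAAA) occurred in 12.4% of windows of 250 bases. The GC box (GGGCGG) occurred in 32.7% of them. The half-site of the progesterone receptor (TGTTCT) occurred in 16.1%, and the CArG box, the motif of serum response factor, in 1.47%. A RefSeq window was at hand for 35 of the 44 genes.

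The pore gene and the smooth muscle subunit of the large conductance calcium-activated (BK) channel had lower mean signal in Cox-1 KO uteri. Kcnma1 encodes the pore, and Kcnmb1 encodes the smooth muscle beta subunit that raises its calcium sensitivity. Kcnmb1 signals were 2927, 3176, 2994 and 3007 in wild-type uteri and 2592, 2678, 2636 and 2791 in Cox-1 KO uteri. The genotypes did not overlap, with all 4 Cox-1 KO values under the lowest wild-type value. The means were 3026 ± 106 and 2674 ± 85.4 (SD, n = 4 each), and the log2 fold change was -0.18 (SE 0.06, 95% interval -0.31 to -0.04). In limma the adjusted p was 0.526, and the exact two-sided permutation p was 0.0286, the smallest that 4 arrays against 4 can give. A second Kcnmb1 probe set gave 906, 1101, 1082 and 1051 against 834, 711, 660 and 896, again without overlap, with a log2 fold change of -0.42 (limma adjusted p = 0.423). Without the 4 arrays high in Apoa1 the difference on the brighter probe set was the same size, -0.18, with an unadjusted p past 0.05.

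Kcnma1 signals were 2551, 2057, 2072 and 1701 in wild-type uteri and 1727, 1943, 1573 and 1446 in Cox-1 KO uteri. Wild-type array 4 lay below Cox-1 KO arrays 1 and 2, so the groups overlapped. The means were 2095 ± 349 and 1672 ± 214 (SD, n = 4 each), and the log2 difference was -0.32 (SE 0.13; limma adjusted p = 0.538; exact permutation p = 0.0857). The next brightest Kcnma1 probe set differed by -0.30 (SE 0.10), with 1271, 1224, 1077 and 974 against 912, 923, 993 and 848. Of the 3 dim probe sets, with signals between 26 and 244, 2 were lower (-0.46 and -0.43) and 1 was higher (0.08, limma adjusted p = 0.976). Leaving out any array other than wild-type array 4 and Cox-1 KO arrays 1 and 2 took the unadjusted p of Kcnma1 past 0.05, and its log2 difference was -0.14 with the yolk sac level as a covariate and -0.19 without the 4 arrays high in Apoa1, both past 0.05.

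The inward rectifiers of the ATP-sensitive channel were among the bright genes, and the more clearly separated was Kcnj8. Kcnj8 encodes Kir6.1, the pore of the vascular and smooth muscle form, and Kcnj11 encodes Kir6.2, the pore of the pancreatic and cardiac form. Signals of Kcnj8 were 2642, 2532, 2363 and 2330 in wild-type uteri and 2095, 2238, 1874 and 1905 in Cox-1 KO uteri. No array of either genotype crossed into the other's range. The means were 2467 ± 147 and 2028 ± 171 (SD, n = 4 each), and the log2 fold change was -0.28 (SE 0.08, 95% interval -0.46 to -0.11). The limma adjusted p was 0.423, and the exact permutation p was the smallest possible, 0.0286. Without the 4 arrays high in Apoa1 the difference was -0.17, with an unadjusted p past 0.05.

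Kcnj11 gave 2257, 1872, 1771 and 1641 in wild-type uteri and 1387, 1664, 1673 and 1843 in Cox-1 KO uteri. Wild-type arrays 3 and 4 and Cox-1 KO arrays 2, 3 and 4 shared the stretch from 1641 to 1843, and the difference of -0.20 on the log2 scale (95% interval -0.45 to 0.06) did not pass the test (limma adjusted p = 0.638). The regulatory subunits of these channels, the sulphonylurea receptors, lie next to the pore genes on the chromosome, Abcc9 beside Kcnj8 on chromosome 6 and Abcc8 beside Kcnj11 on chromosome 7. Abcc9 signals were 3260, 3221, 4158 and 3338 against 3055, 3302, 3062 and 2847, a log2 difference of -0.18 (limma adjusted p = 0.583). Abcc8, the pancreatic form, was dim, between 28 and 246 on all arrays, and its difference of 0.65 had a 95% interval from -0.59 to 1.90. Kcnj8 is also a gene of vessel walls. Of 5 endothelial markers tested, 1, Pecam1, had an unadjusted p under 0.05, at -0.29 (limma adjusted p = 0.423). Of the other 4, 3 were lower and Cdh5 was higher, at 0.22, and the summed signal of the 5 overlapped, at 10559 to 11782 in wild-type uteri and 9746 to 11306 in Cox-1 KO uteri. The part of blood vessels in the Kcnj8 difference was not tested.

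Kcnh2 encodes the ERG channel, whose current repolarises heart muscle and has been described in myometrium. Its signals were 1567, 1717, 1359 and 1345 in wild-type uteri and 955, 1228, 1316 and 1098 in Cox-1 KO uteri. The highest Cox-1 KO value lay just under the lowest wild-type value. The means were 1497 ± 178 and 1149 ± 157 (SD, n = 4 each), and the log2 fold change was -0.38 (SE 0.12, 95% interval -0.65 to -0.12; limma adjusted p = 0.489; exact permutation p = 0.0286). The difference was -0.29 with the yolk sac level as a covariate and -0.33 without the 4 arrays high in Apoa1, with an unadjusted p past 0.05 in both. Kcnh3, a related channel best known from brain, was dimmer, at 297 to 472 against 233 to 365, and differed by -0.24 (95% interval -0.67 to 0.20). Without the 4 arrays high in Apoa1 its difference was -0.72. The only Cox-1 KO array left there, array 2, had the lowest Kcnh3 signal of all, 233.

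**Figure D3:**
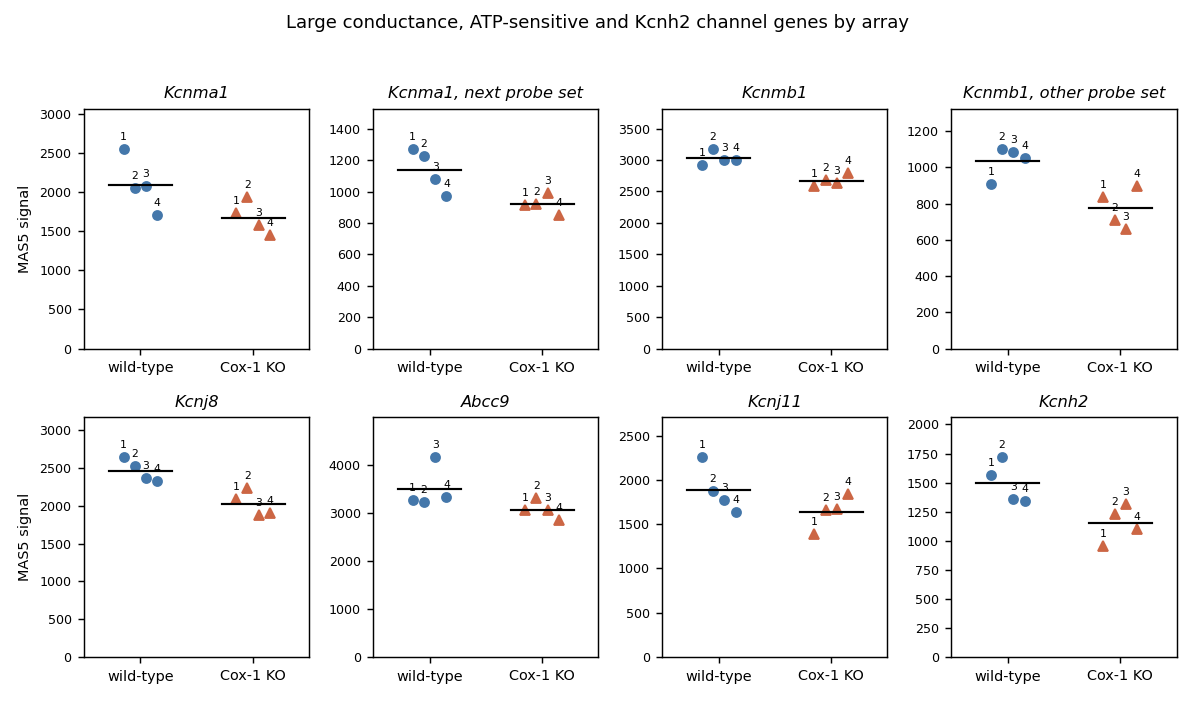
MAS5 signal (linear axis from 0) on each array, numbered by replicate, for Kcnma1 and Kcnmb1 on 2 probe sets each, Kcnj8, Abcc9, Kcnj11 and Kcnh2, with the mean of each genotype as a bar. The Cox-1 KO points lie below all wild-type points for both Kcnmb1 probe sets, Kcnj8 and Kcnh2, and overlap them for Kcnma1, Abcc9 and Kcnj11.

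For the wider list of potassium channel genes known from uterine or other smooth muscle, 19 of 29 listed genes were in the table and 18 were tested. Of these, 16 were lower in Cox-1 KO uteri (88.9%, against 52.7% of all genes) and 2 were higher. The median log2 fold change was -0.22, against -0.01 for all genes. At an unadjusted p under 0.05, 4 were lower (Kcnj8, Kcnh2, Kcnmb1 and Kcnma1) and 1 was higher (Kcnn4), and none passed after adjustment. Of all genes, 4.37% were lower and 4.83% were higher at that threshold. The summed signal of the list was 23943, 23401, 22527 and 21474 in wild-type uteri and 19469, 21381, 19917 and 20383 in Cox-1 KO uteri. Every Cox-1 KO sum lay below every wild-type sum, though Cox-1 KO array 2, at 21381, came close to wild-type array 4, at 21474. A large part of each sum came from Kcne4, at 7042 to 8229. The summed signal of the 7 smooth muscle markers overlapped, at 213692 to 241958 in wild-type and 221431 to 241397 in Cox-1 KO uteri, with 5 of the 7 lower and 2 higher. Of these, Smtn was lower at an unadjusted p under 0.05 (-0.13), and Lmod1 was lower without overlap (-0.26). Of the 5 uterus markers 4 were lower, Esr1 at an unadjusted p under 0.05 (-0.16), with sums of 40566 to 45926 and 35727 to 41415. The 7 epithelial markers were all higher in Cox-1 KO uteri, with sums of 88444 to 113112 and 108687 to 134865, and 1 of them had an unadjusted p under 0.05. Whether these marker levels bear on the channel genes was not tested.

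The accessory subunits Kcne2 and Kcne4 and the tandem-pore channel Kcnk1 were bright on every array, and of the 3 genes Kcne2 alone had an unadjusted p under 0.05 on its brightest probe set. Kcne2 encodes a single-span subunit that, with Kcnq1, forms a constitutively open channel of stomach, thyroid and choroid plexus epithelium. It gave 8037, 9033, 10090 and 9842 in wild-type uteri and 6011, 7290, 9487 and 7691 in Cox-1 KO uteri. Cox-1 KO array 3 lay within the wild-type range and the other 3 below it. The means were 9251 ± 926 and 7620 ± 1436 (SD, n = 4 each), and the log2 fold change was -0.29 (SE 0.12; limma p = 0.0354, adjusted p = 0.547; exact permutation p = 0.114). Leaving out any single array other than wild-type array 1 or Cox-1 KO array 3 took its unadjusted p past 0.05.

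Kcne4, a related subunit that inhibits Kcnq1 and some Kv1 channels, gave 7666, 8093, 8229 and 7579 against 7042, 7899, 7529 and 7699. The groups overlapped, and the 95% interval of the log2 difference, -0.19 to 0.06, was among the narrowest of the family. Kcnk1, which encodes the tandem-pore channel TWIK-1, gave 19142, 20296, 17852 and 19300 against 18079, 18515, 19425 and 18708, a log2 difference of -0.03 (95% interval -0.15 to 0.08). Its second probe set gave 8238, 9265, 8280 and 8656 against 6726, 7814, 8303 and 6783. There the difference was -0.22 (limma adjusted p = 0.526), so the probe sets of this gene differed in size of effect.

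**Figure D4:**
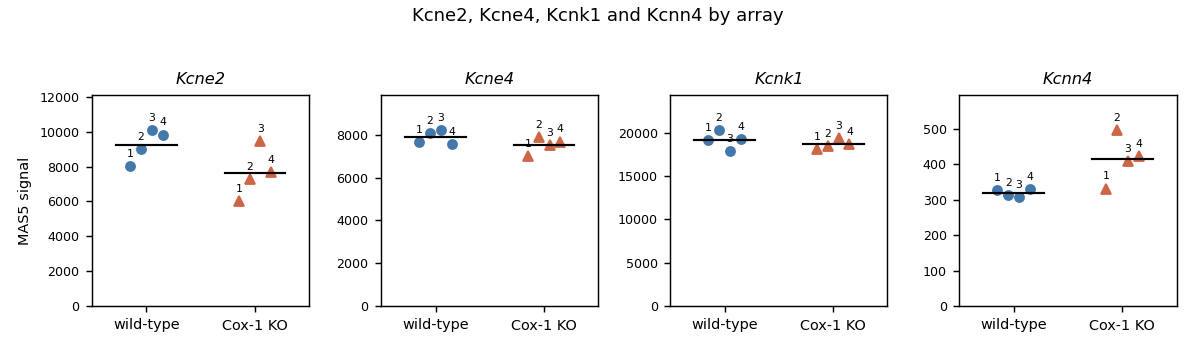
MAS5 signal (linear axis from 0) of Kcne2, Kcne4, Kcnk1 and Kcnn4 on each array, numbered by replicate, with the mean of each genotype as a bar. Kcnn4 is higher in every Cox-1 KO uterus than in any wild-type uterus, whereas the groups overlap for Kcne2, Kcne4 and Kcnk1.

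The remaining bright tandem-pore genes overlapped between the genotypes. Kcnk5, which encodes the alkali-activated channel TASK-2 of kidney epithelium, gave 1061, 2062, 1929 and 1439 against 1754, 1957, 1611 and 1569. Wild-type array 1 was the lowest of the 8, and the difference of 0.13 became -0.06 without it. Kcnk6 (TWIK-2) ranged from 1206 to 1557 and from 1224 to 1455 and differed by -0.01 (95% interval -0.24 to 0.21). Kcnk2, the stretch-activated channel TREK-1 described in myometrium, ranged from 321 to 501 in wild-type and 303 to 417 in Cox-1 KO uteri, and differed by -0.17 (95% interval -0.56 to 0.22).

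Kcnn4 was the only tested member with higher signal in every Cox-1 KO uterus than in any wild-type uterus. It encodes the intermediate conductance calcium-activated channel of lymphocytes, macrophages, red cells and secretory epithelia. Wild-type signals were 328, 313, 307 and 331, and Cox-1 KO signals were 332, 497, 409 and 424. The separation was by 1 signal unit, between wild-type array 4 and Cox-1 KO array 1, and Cox-1 KO array 2 was the highest. The means were 320 ± 11.6 and 415.5 ± 67.6 (SD, n = 4 each), and the log2 fold change was 0.36 (SE 0.15, 95% interval 0.04 to 0.68; limma p = 0.0291, adjusted p = 0.538; exact permutation p = 0.0286). Its unadjusted p lay past 0.05 when wild-type array 2 or 3 or Cox-1 KO array 2, 3 or 4 was left out. Without the 4 arrays high in Apoa1 the difference was 0.65, with Cox-1 KO array 2, the highest, as the only one of its genotype left.

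Markers of cells that use Kcnn4 were read beside it. The summed signal of 5 macrophage markers was 28755 to 33091 for wild-type arrays and 31062 to 35988 for Cox-1 KO arrays, with 4 of 5 higher, 1 of them at an unadjusted p under 0.05, and a median log2 fold change of 0.01. The 3 measured markers of natural killer and T cells summed to 2797, 2382, 2106 and 1906 in wild-type and 2273, 3324, 2896 and 3696 in Cox-1 KO uteri, most of it from Prf1, which encodes perforin and differed by 0.47 (limma adjusted p = 0.525). Gzma and Klrk1 differed by 0.62 and -0.16, neither at an unadjusted p under 0.05. All 7 epithelial markers were higher in Cox-1 KO uteri, with a median log2 fold change of 0.16. Their sums were 88444 to 113112 in wild-type and 108687 to 134865 in Cox-1 KO uteri. The part of immune or epithelial cells in the Kcnn4 signal was not tested. The small conductance channels of the same family were dim, Kcnn1 at 88 to 145 against 129 to 203 and Kcnn2 at 89 to 177 against 98 to 115, and neither passed the test. Kcnt2, a sodium-activated channel, ranged from 150 to 237 against 134 to 183 and differed by -0.18 (95% interval -0.66 to 0.29).

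Kcnj15 was a dim gene that passed the filter only through the arrays on which it was high, so its difference is given as a description. Kcnj15 encodes Kir4.2, and Kcnj16 encodes Kir5.1, which forms mixed channels with it and with Kir4.1 in kidney epithelium. Kcnj15 signals were 7, 42, 39 and 163 in wild-type uteri and 672, 60, 354 and 283 in Cox-1 KO uteri. The 4 arrays above 100 were wild-type array 4 and Cox-1 KO arrays 1, 3 and 4, the same 4 that were high in Apoa1. With signals under 100 set to 100, the log2 difference was 1.34. On the signals as they stand it was 2.77 (SE 0.92), a value that rests on wild-type signals far below 100, with the yolk sac level as a covariate 1.17, and without the 4 arrays 1.41, the last 2 with an unadjusted p past 0.05. A second Kcnj15 probe set did not pass the filter, with 55, 72, 46 and 73 against 46, 79, 200 and 88.

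Of the 8 tested yolk sac markers, 7 split the arrays as Kcnj15 did, and Rbp4, which gave 26827 to 39535 over the 8 arrays, did not. Amn, which encodes the amnionless protein of visceral endoderm and kidney, gave 351, 324, 277 and 1840 in wild-type and 2839, 414, 2660 and 1991 in Cox-1 KO uteri. All 8 were higher in Cox-1 KO uteri, 5 of them at an unadjusted p under 0.05, and the summed signal ran from 30938 to 201057 and from 42638 to 277806. Of 2 measured markers of placental trophoblast, Phlda2 split the arrays in the same way, with 145, 138, 75 and 445 against 833, 101, 670 and 594. The other, Tpbpa, did not, at 5604 to 18147 in wild-type and 13871 to 17387 in Cox-1 KO uteri. The part of yolk sac or trophoblast tissue in the Kcnj15 signal was not tested beyond these values.

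Kcnj16 was not split in that way. It gave 126, 272, 155 and 196 in wild-type uteri and 292, 296, 253 and 281 in Cox-1 KO uteri. Cox-1 KO array 2, low in Apoa1, had the highest signal of all, and only wild-type array 2 lay within the Cox-1 KO range. The means were 187 ± 63.4 and 280.5 ± 19.4 (SD, n = 4 each), and the log2 fold change was 0.64 (SE 0.23, 95% interval 0.13 to 1.15; limma p = 0.0191, adjusted p = 0.53; exact permutation p = 0.0571). It was 0.62 with the yolk sac level as a covariate and 0.76 without the 4 arrays, with an unadjusted p past 0.05 in both, and its unadjusted p also lay past 0.05 without wild-type array 1 or wild-type array 3. Kcnj3 and Kcnj6, the G protein-gated inward rectifiers, were dim, with means of 157 and 123, and their log2 differences of -0.24 and -0.28 did not pass the test.

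**Figure D5:**
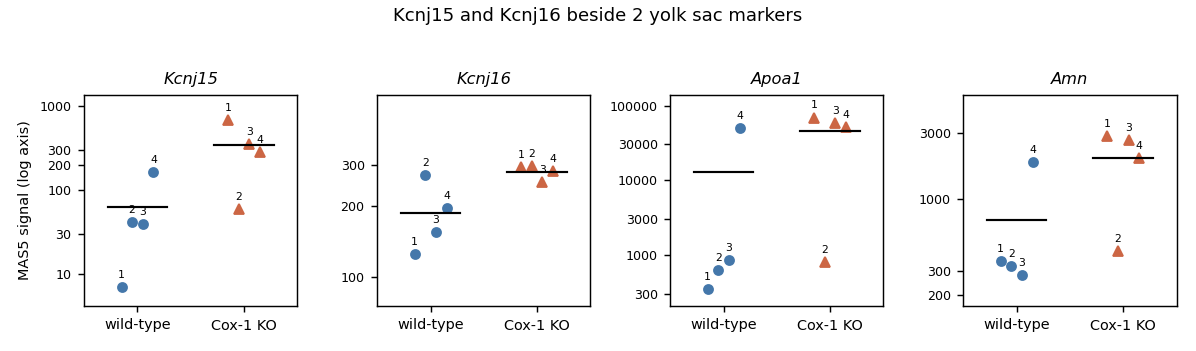
MAS5 signal (log axis) of Kcnj15, Kcnj16 and the yolk sac markers Apoa1 and Amn on each array, numbered by replicate, with the mean of each genotype as a bar. Wild-type array 4 and Cox-1 KO arrays 1, 3 and 4 are high for Kcnj15, Apoa1 and Amn, while Cox-1 KO array 2 is low for these genes and high for Kcnj16.

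The voltage-gated channels of the Kcna to Kcnd families were of moderate or low signal, and none of the 7 tested had an unadjusted p under 0.05. Of these, 5 were lower and 2 higher in Cox-1 KO uteri. Kcna2 gave 120, 109, 71 and 91 against 19, 58, 102 and 121, a difference of -0.66 (95% interval -1.88 to 0.56). With signals under 100 set to 100 that difference was -0.02. Kcna5, which was not tested, gave 64, 59, 105 and 40 against 79, 72, 88 and 87. Kcnd2 and Kcnd3 encode the pores of the transient outward current. Kcnd3 ranged from 518 to 819 in wild-type and 511 to 704 in Cox-1 KO uteri, a difference of -0.28 (95% interval -0.63 to 0.08). It was -0.42, at an unadjusted p under 0.05, without wild-type array 2, -0.37, also under 0.05, without Cox-1 KO array 2, and 0.08 without the 4 arrays high in Apoa1. Kcnd2 ranged from 217 to 398 and 173 to 309, a difference of -0.41 (95% interval -0.98 to 0.17). Kcnd1, of the same family, ranged from 189 to 334 and 230 to 336 and differed by 0.06 (95% interval -0.41 to 0.53). The Kv channel interacting proteins that partner them, Kcnip1 to Kcnip4, all passed the filter. Kcnip3, which also acts as a calcium-regulated transcriptional repressor, gave 402, 403, 259 and 293 against 250, 280, 226 and 260, with wild-type arrays 1 and 2 the highest, and differed by -0.40 (95% interval -0.79 to 0.00; limma adjusted p = 0.569). Kcnip1 differed by -0.51, with a 95% interval from -1.32 to 0.30, and by -0.84, at an unadjusted p under 0.05, without wild-type array 3.

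Modifier subunits, which form no channel alone but change the gating of Kv2 channels, were all of moderate signal. Kcnf1 had a mean of 593, Kcns3 of 382 and Kcnv2 of 318, and their log2 differences were -0.04, -0.27 and -0.34. None passed the test, and the nearest was Kcnv2 (limma adjusted p = 0.589). Kcnq1 and Kcnq5, the slow delayed rectifier and M-type channels that are also found in myometrium, had means of 767 and 456 and differed by -0.24 (95% interval -0.57 to 0.08) and -0.14 (95% interval -0.47 to 0.19). A dimmer Kcnq5 probe set gave 442, 384, 369 and 334 against 256, 396, 283 and 161 and a difference of -0.55 (limma adjusted p = 0.561). Among the 14 genes with 2 or more tested probe sets, all probe sets of a gene had 1 direction for 9 genes, of which 8 were lower.

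Kcnq1ot1, the antisense RNA that silences neighbouring genes on the paternal chromosome 7, was bright and had no called difference on any of its probe sets. Its brightest probe set gave 2117, 1314, 1419 and 1659 in wild-type uteri and 1655, 1403, 1753 and 1512 in Cox-1 KO uteri, a log2 difference of -0.02 (95% interval -0.33 to 0.29). Wild-type array 1 was the highest of all 8. The other 3 probe sets differed by 0.16, -0.16 and 0.39, with no unadjusted p under 0.05. Kcnj3, Kcnip3 and Kcnk15 lie on chromosome 2, as Ptgs1 does, and of these Kcnj3 and Kcnip3 were tested and neither passed.

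Genes that work with or against potassium channels were read from 3 further lists. Of 9 tested partner genes outside the Kcn symbols, such as the sulphonylurea receptors, caveolin Cav1 and the anchoring protein Akap9, 4 were higher and 5 lower, and none had an unadjusted p under 0.05. Of 8 tested genes for the sodium-potassium pump and potassium-coupled cotransport, 3 were higher and 5 lower. At an unadjusted p under 0.05 the pump subunit Atp1b1 was higher by 0.31 (limma adjusted p = 0.541), the potassium-chloride cotransporter Slc12a7 higher by 0.26 (limma adjusted p = 0.561) and phospholemman, Fxyd1, at -0.17 (limma adjusted p = 0.538). Over all genes tested, 4.83% were higher and 4.37% lower at that threshold. Atp1b1 gave 7872, 8973, 9697 and 11543 in wild-type uteri and 14045, 10053, 12573 and 10511 in Cox-1 KO uteri, with wild-type array 4 inside the Cox-1 KO range.

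The depolarising channels oppose the potassium channels, and 13 of them were tested. Of these, 11 were lower and 2 higher in Cox-1 KO uteri, where 31 of 42 potassium channel genes and 52.7% of all genes were lower. The median log2 fold change was -0.17, as for the potassium channel genes, against -0.01 for all genes. Cacna2d1, an auxiliary subunit of the voltage-gated calcium channels, gave 2039, 1733, 1851 and 1771 against 1343, 1728, 1357 and 1631, without overlap though wild-type array 2 and Cox-1 KO array 2 lay 5 apart. Its log2 difference was -0.29 (SE 0.10; limma p = 0.0143, adjusted p = 0.526; exact permutation p = 0.0286). Ano1, the calcium-activated chloride channel, gave 1968, 3042, 2616 and 2681 against 3774, 3724, 3181 and 2535, higher by 0.36 (limma adjusted p = 0.549), with Cox-1 KO array 4 inside the wild-type range. No gene of these 3 lists passed after adjustment.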

How the data were processed

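Uterine RNA of 8 mice, 4 wild-type and 4 Cox-1 KO, was hybridised to Affymetrix mouse genome arrays, 1 mouse on each. The deposited values were linear intensity, computed by the authors with Affymetrix Microarray Suite 5 (MAS5) and scaled to a target of 1000. The table held 28000 probe sets, 60 of them array controls. How these were chosen is not given in the sources used here, and no column of values was left unused (0). Groups came from the labels.

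Signals below 1 were set to 1 and log2 was taken. The 26444 probe sets that reached 100 on 4 arrays or more, in place of a present call, were tested with limma 3.58.1 in R 4.3.3 (moderated, with a variance trend), adjusted by Benjamini-Hochberg over all kept probe sets. The exact permutation test covered all assignments of the 8 arrays and was two-sided. The methods' t-test was run on the same log2 values. The scripts were tested on simulated data. Genes were named through the platform annotation, with several-symbol probe sets left unnamed. Ptgs1 had no symbol there, and its probe set was identified from the paper's list of genes that differed between these genotypes. Its p-value is therefore that of a probe set picked from calls on these same arrays. All 44 member symbols matched RefSeq.

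The members and gene lists were chosen with earlier results of these data known, so no list was tested. Genes given with values were those on the smooth muscle list, the 3 brightest of each class, members at an unadjusted p under 0.05 or past the methods' thresholds, the 5 most variable members and, of each other list, up to 3 genes at an unadjusted p under 0.05. The cell type markers named singly, and the other members named, were chosen after their values were seen. Alternatives were another constant, floor, filter, scaling, weighting or choice of probe set, the replicate block, each array left out, the mean level of the yolk sac list as a covariate, and the 4 arrays high in Apoa1 left out. The number of arrays limits the precision.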

Additional observations from a re-analysis of the deposited data

Results flagged for a closer look

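Kcnmb2, a dim accessory subunit, held 1 array far below the others in each genotype. Wild-type array 3 gave 38, against 123 to 156 on the other 3, and Cox-1 KO array 2 gave 16, against 144 to 201. The gap to the nearest array took up 0.832 and 0.868 of the group's range, above Dixon's 95% critical value. Of 64 groups of 4 arrays examined, these 2 were found, fewer than the 1 in 20 that chance gives. Without Cox-1 KO array 2 the log2 difference of Kcnmb2 was 0.69, with an unadjusted p past 0.05.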

How the results depend on the processing

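In every alternative run, no potassium channel gene passed an adjusted p of 0.05. The count of 8 genes at an unadjusted p under 0.05 lay between 7 and 9 under another constant, floor, filter, scaling, variance model, weighting or probe set rule. It was 4 with the yolk sac level as a covariate and 3 by the methods' t-test, and between 4 and 7 with 1 array left out (4 without Cox-1 KO array 4). With the covariate these were 9.52% of the potassium channel genes, against 5.59% of all probe sets. With 1 array left out the shares were 10% to 17.1% of the potassium channel genes, against 6.49% to 11.6% of all probe sets. They lay closest in ratio without Cox-1 KO arrays 2 (16.7% against 11.6%) and 4 (10% against 7.27%). For the methods' t-test the share over all probe sets was not counted. The median log2 fold change ranged from -0.18 to -0.11 with 1 array left out, the count of genes without overlap from 4 to 8, and the count past the methods' thresholds from 0 to 1 (1 without wild-type array 2 or Cox-1 KO array 2). Groups of any gene separate more easily with 1 array fewer, and the share over all genes was not counted there. Genes kept numbered 40 to 42 with 1 array left out and 28 at a minimum of 200. For the partner, pump and depolarising lists together, 5 genes had an unadjusted p under 0.05, 2 with the covariate and 2 to 8 with 1 array left out, with 2 without wild-type array 3 or Cox-1 KO array 1 or 3, 3 without wild-type array 2 and 8 without wild-type array 4. Of all probe sets, 8.81% were under that threshold in the main run, 5.59% with the covariate and 6.49% to 11.6% with 1 array left out. The direction of Kcnma1 was reversed on 1 dim probe set (0.081). The deviations of same-numbered arrays had correlations of -0.25 to 0.22, too few to decide whether the numbers pair the mice. The methods report that balanced sets of samples were processed side by side, without naming them. With the replicate block 7 genes had an unadjusted p under 0.05 (16.7%, against 7.91% of all probe sets). Overlap was not counted without the 4 arrays, since 1 Cox-1 KO array was left. Signals near 100 limit what can be said of the dim genes.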
